A study of Mus musculus with 24 samples.

Results

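Cholesterol synthesis was followed through 10 of its enzyme genes in the subcutaneous inguinal fat of mice with and without the clock gene Bmal1 in fat cells. The genes were Hmgcs1, Mvd, Idi1, Fdps, Fdft1, Sqle, Lss, Cyp51, Nsdhl and Sc5d, each read by its brightest probe set with a single gene symbol, and all 10 were among the 19938 genes tested. The 24 arrays form 8 groups of 3 mice. Knockout mice (Ad-Bmal1-/-) carried aP2-Cre+/- and Bmal1fx/fx, control mice carried Bmal1fx/fx, and both were sampled at CT0, CT6, CT12 and CT18 (circadian time), where CT0 opens the subjective day. The age of the animals is not given in the sources used here. Every animal had been backcrossed to C57BL/6J for 6 or more generations, ate chow, was kept in constant darkness for 36 h before the first collection and went without food for 24 h. The aP2 promoter drives Cre in fat cells and is also known to be active in other cells such as macrophages, and the controls carry no Cre, so an effect of Cre itself cannot be told apart from the deletion.

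Cells make cholesterol from acetyl-CoA through mevalonate, isoprenoid diphosphates, squalene and lanosterol. Transcription of most of these enzymes is known to be driven by SREBP2 when sterols in the endoplasmic reticulum are low, and the genes are therefore often read as a block. Fat cells make little cholesterol of their own and store much that they take up, and fasting is known to lower sterol and fatty acid synthesis.

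Levels are log2 expression values, and levels of different probe sets cannot be set against each other. The targeted gene Arntl (Bmal1) ranged over 6.46 to 7.51 on knockout arrays and over 6.04 to 7.97 on control arrays, with a genotype difference of -0.54 at CT0 and 0.01 on average. Whether its probe set lies in the deleted part is not given in the sources used here, so these values do not check the deletion. The mean of 7 adipocyte markers was 10.26 to 11 on knockout arrays and 10.63 to 11.1 on control arrays, with Adipoq at 11.77 to 12.13. Markers of other cells were also bright, with means of 6 macrophage markers at 7.96 to 9.44 on knockout and 8.57 to 9.24 on control arrays. These levels do not rank the cell types. Several arrays stood apart. The mean of 9 epithelial markers was 7.74 on knockout replicate 2 at CT0, against 5.96 to 6.36 on the other 23 arrays. The mean of 5 liver markers was 9.39 on knockout replicate 2 at CT6, against at most 7.46 elsewhere. On 100 genes chosen for their genotype difference at CT0 and CT6, with the cholesterol genes left out, replicate 1 of both genotypes at CT12 and replicate 3 of both genotypes at CT18 sided with the opposite genotype. These scores were -0.25 (knockout) and 0.13 (control) at CT12, and -0.25 (knockout) and 0.08 (control) at CT18. All arrays were kept as labelled, and whether the genotype labels of these 2 same-numbered pairs were exchanged was not tested. An exchange would change every CT12, CT18 and mean difference. Results are given with and without these 4 arrays, and because genotype-dependent genes singled them out, the values without them are no independent support for a genotype difference.

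Promoter sequences were compared because the genes did not share 1 direction. The RefSeq table (build GRCm38.p6) held 7 of the 10 genes, all but Fdps, Fdft1 and Sqle. Shown are 250 bases upstream of the start of Hmgcs1, the gene with the largest genotype difference, and of Nsdhl and Sc5d, 2 genes of the end of the pathway. Each is printed 5′ to 3′ in the direction of transcription, and capitals mark the motifs searched on both strands, which did not overlap: TCACCCCAC (a sterol regulatory element), CCAAT (bound by NF-Y, written ATTGG on the other strand), CACGTG (the canonical E-box of the CLOCK and BMAL1 pair) and AGGTCA (a core site of REV-ERB and ROR receptors, written TGACCT on the other strand).
Hmgcs1, chr13:119690101-119690350, + strand: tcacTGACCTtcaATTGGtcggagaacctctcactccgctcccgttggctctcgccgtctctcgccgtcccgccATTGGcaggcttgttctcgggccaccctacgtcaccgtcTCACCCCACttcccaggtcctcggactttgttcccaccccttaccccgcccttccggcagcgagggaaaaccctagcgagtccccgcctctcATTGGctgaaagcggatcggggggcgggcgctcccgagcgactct
Nsdhl, chrX:72918271-72918520, + strand: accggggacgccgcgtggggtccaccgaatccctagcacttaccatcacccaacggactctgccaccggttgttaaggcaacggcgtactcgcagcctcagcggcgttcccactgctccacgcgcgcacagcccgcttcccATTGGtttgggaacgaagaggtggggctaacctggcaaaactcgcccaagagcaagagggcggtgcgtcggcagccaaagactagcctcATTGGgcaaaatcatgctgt
Sc5d, chr9:42264301-42264550, - strand: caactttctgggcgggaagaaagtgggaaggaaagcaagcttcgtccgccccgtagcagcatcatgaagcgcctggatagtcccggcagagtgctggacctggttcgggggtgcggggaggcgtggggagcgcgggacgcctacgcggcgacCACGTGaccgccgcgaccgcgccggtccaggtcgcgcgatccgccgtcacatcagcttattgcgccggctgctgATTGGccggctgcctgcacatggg
CCAAT was present in 7 of the 7 promoters, against 33.8% of all 32851 promoters in the table. TCACCCCAC was present in 1 of the 7, Hmgcs1, at -137 to -129 from the start, against 0.496% of all promoters. CACGTG was present in Sc5d alone, at -98 to -93 (6.02% of all), and AGGTCA in Hmgcs1 alone, at -246 to -241 (14% of all). These are matches of exact letters, not measured binding, and other forms of these motifs were not searched.

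The largest mean genotype difference among these genes was in Hmgcs1, the cytosolic HMG-CoA synthase that opens the route to mevalonate. At CT0 the Hmgcs1 level was 10.38, 9.06 and 10.34 in knockout fat, against 9.77, 9.14 and 9.28 in control fat. At CT6 it was 9.74, 10.49 and 10.18 in knockout fat, against 8.97, 9.38 and 9.35 in control fat. The groups did not overlap at CT6, and at CT0 knockout replicate 2, the array with epithelial markers, lay below all 3 controls. At CT12 the level was 9.27, 10.20 and 10.23 in knockout fat, against 10.29, 8.74 and 8.49 in control fat. At CT18 it was 9.61, 9.98 and 8.35 in knockout fat, against 8.45, 8.52 and 9.45 in control fat. At CT12 the highest array was a control, and at CT18 the lowest was a knockout. Both are among the 4 arrays that sided with the opposite genotype.

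Over the 4 times, Hmgcs1 averaged 0.67 ± 0.23 (SE) higher in knockout fat, a 1.59-fold difference with a 95% interval of 0.20 to 1.14 on the log2 scale. It was above the control mean of its time on 10 of 12 knockout arrays, and 2 of the 19938 genes had a larger mean difference. The unadjusted limma p was 0.00743, the two-sided exact permutation p over 160000 exchanges of genotype within times was 0.0142, and the limma p adjusted over all genes was 0.61. By that adjusted test 4 genes passed (0.0201% of all), all lower in knockout fat, and 0 of the 10 cholesterol genes did. At an unadjusted p under 0.05, 6.07% of all genes and 2 of the 10 were called. Without the 4 arrays the Hmgcs1 difference was 1.09 ± 0.15, or 2.12-fold (adjusted p = 0.00183), in a fit that called 139 genes (0.697%). With limma's array weights over all 24 arrays it was 0.90 (adjusted p = 0.0361). Such weights count less the arrays that deviate from their labelled group, so this value is no independent support either. The 2 knockout arrays below the control mean of their time weighed 0.253 (CT0 replicate 2) and 0.407 (CT18 replicate 3). Over 34 alternative fits the adjusted p of Hmgcs1 ranged over 0.00183 to 0.87, and with 1 array left out at a time over 0.172 to 0.87.

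The Hmgcs1 difference kept its sign at each time, at 0.53, 0.90, 0.73 and 0.51 from CT0 to CT18, each with an SE of 0.45. Without the 4 arrays it was 1.60 at CT12 and 1.31 at CT18. The genotype by time interaction gave an unadjusted p of 0.914. The highest Hmgcs1 level, 10.49, was on the array with liver markers, and hepatocytes express the gene strongly. Without that array the mean difference was 0.62 ± 0.23 and the difference at CT6 was 0.73 ± 0.51. Without the array with epithelial markers the mean difference was 0.77 ± 0.21. Endothelial markers also differed by sign. The 5 of them were lower on average in knockout fat in 5 of 5 cases (median -0.18), and 4 of 5 (Pecam1, Cdh5, Kdr and Esam) were lower at an unadjusted p under 0.05 (3.58% of all genes). Their mean was 7.76 to 8.39 on knockout arrays and 7.99 to 8.44 on control arrays, and their part in the Hmgcs1 and Fdft1 differences was not tested. In bulk tissue a change in the number of cells of a type and a change in RNA per cell cannot be told apart.

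**Figure D1:**
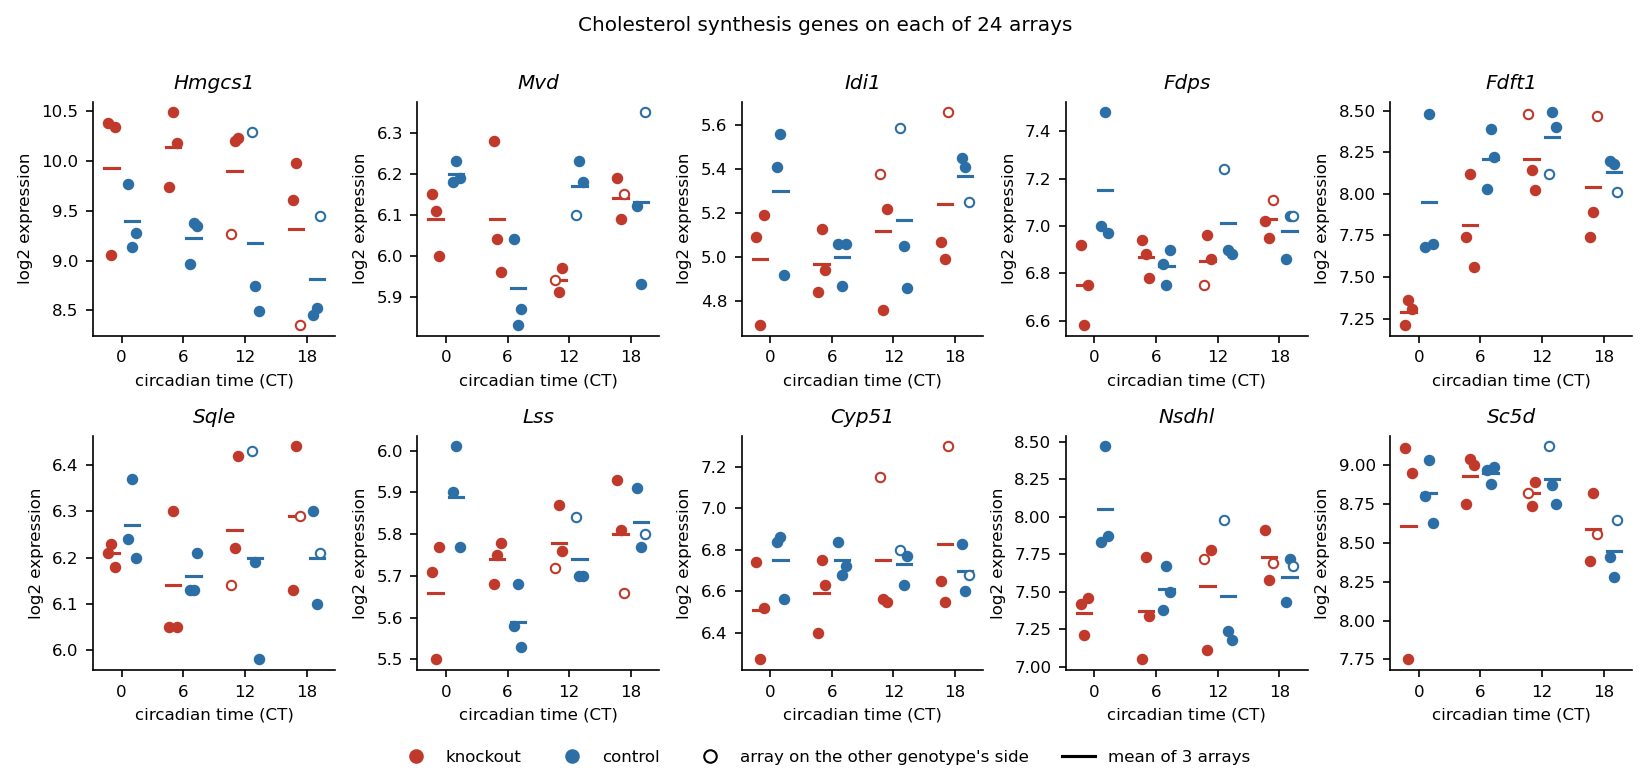
Log2 expression (y axes, scaled per gene) of the 10 genes on each of 24 arrays by circadian time (x axes), knockout left of control, with the mean of 3 arrays as a bar and the 4 arrays that sided with the opposite genotype as open circles. Hmgcs1 is higher in knockout fat at CT6 without overlap (9.74 to 10.49 against 8.97 to 9.38), and Fdft1 is lower at CT0 without overlap (7.21 to 7.36 against 7.68 to 8.48).

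Fdft1, squalene synthase, which commits farnesyl diphosphate to sterols, differed in the opposite direction. At CT0 its level was 7.21, 7.36 and 7.31 in knockout fat, against 7.68, 8.48 and 7.70 in control fat, with every knockout array below every control. At CT6 it was 7.74, 8.12 and 7.56 in knockout fat, against 8.03, 8.39 and 8.22 in control fat. Here a single knockout array reached into the control range. At CT12 the level was 8.48, 8.14 and 8.02 in knockout fat, against 8.12, 8.49 and 8.40 in control fat. At CT18 it was 7.74, 7.89 and 8.47 in knockout fat, against 8.20, 8.18 and 8.01 in control fat. The groups overlapped at both late times, and the highest knockout value at each was on an array that sided with the opposite genotype.

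On average Fdft1 differed by -0.32 ± 0.099 (1.25-fold lower in knockout fat; unadjusted limma p = 0.00393, adjusted p = 0.493; exact permutation p = 0.0084, two-sided). It lay below the control mean of its time on 10 of 12 knockout arrays, and 61 of the 19938 genes had a more negative mean difference. The difference was -0.66, -0.41, -0.12 and -0.09 from CT0 to CT18, each with an SE of 0.20, and the interaction gave an unadjusted p of 0.176. Without the 4 arrays the mean difference was -0.45 ± 0.096 (adjusted p = 0.0368), with -0.36 at CT12 and -0.37 at CT18. Over 34 alternative fits its adjusted p ranged over 0.0368 to 0.784. A second, dimmer Fdft1 probe set gave -0.31 on average and -0.60 at CT0.

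The other 8 genes lay closer to 0 on average. The 2 isoprenoid enzymes after mevalonate, Mvd, which forms isopentenyl diphosphate, and Idi1, which isomerises it, differed by -0.04 ± 0.047 and -0.13 ± 0.10. Fdps, which builds farnesyl diphosphate, differed by -0.12 ± 0.061. Past squalene, Sqle, the squalene epoxidase, differed by 0.01 ± 0.053, and Lss, which closes the ring to lanosterol, by -0.02 ± 0.043. Cyp51, the lanosterol demethylase, differed by -0.06 ± 0.086. Nsdhl, a dehydrogenase of sterol demethylation, differed by -0.16 ± 0.11, and Sc5d, which places a double bond in the sterol ring, by -0.05 ± 0.11. None of these 8 passed an unadjusted limma p of 0.05 for the mean difference. Without the 4 arrays Cyp51 did, at -0.16 ± 0.067 (adjusted p = 0.439), in a fit with 8.88% of all genes at that level. The 95% intervals are widest for Nsdhl (-0.38 to 0.06), Idi1 (-0.34 to 0.08) and Sc5d (-0.28 to 0.18), so a difference the size of that in Hmgcs1 lies outside each of them. A difference like that in Fdft1 (-0.32) lies inside those of Nsdhl and Idi1. In all, 8 of the 10 genes were lower in knockout fat by sign, against 49.4% of all genes, and the median difference was -0.05, against 0.00077 over all genes. Without the 4 arrays 6 of 10 were lower, against 50.6% of all genes.

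**Figure D2:**
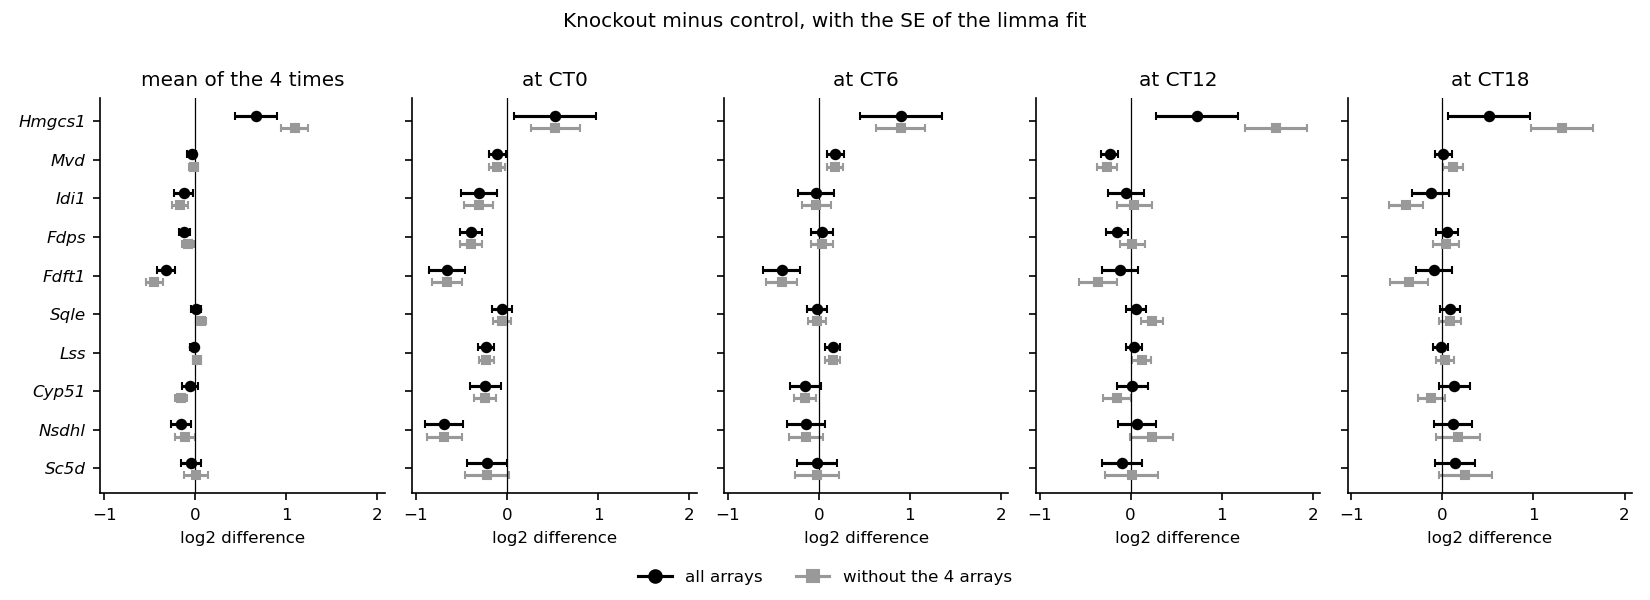
Log2 difference, knockout minus control (x axes), with the SE of the limma fit, for each gene (rows) averaged over the 4 times and at each time, with all arrays (black circles) and without the 4 arrays that sided with the opposite genotype (grey squares). Hmgcs1 is the only gene right of 0 in all 5 panels with all arrays, at 0.51 to 0.90 by time. Fdft1 and Idi1 lie left of 0 in all 5 with all arrays.

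CT0 was the time at which most of the pathway stood lower in knockout fat. The difference was negative for 9 of the 10 genes, all but Hmgcs1, against 44.6% of all genes, and the median was -0.24, against 0.014 over all genes. At an unadjusted limma p under 0.05, 4 of the 10 were lower (2.78% of all genes): Nsdhl at -0.69 ± 0.21, Fdft1 at -0.66 ± 0.20, Fdps at -0.40 ± 0.12 and Lss at -0.23 ± 0.086. By the limma p adjusted over all genes 0 of 10 passed, as did 0 of 19938 (0%). The adjusted p was 0.692 for Nsdhl, 0.666 for Fdft1 and Fdps and 0.794 for Lss.

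At CT0, unlike over all times, arrays of the same replicate number deviated together. In a fit of the 6 CT0 arrays with the replicate number as a block, added after seeing the data, 3 of 10 were lower at an unadjusted p under 0.05 (3.01% of all genes). They were Nsdhl at -0.69 ± 0.18, Fdft1 at -0.66 ± 0.15 and Fdps at -0.40 ± 0.16. Lss, at -0.23 ± 0.11, was not among them, and Hmgcs1, at 0.53 ± 0.20, passed that level as higher. By the adjusted p 0 of 10 passed, and 2 genes in all did.

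Nsdhl at CT0 read 7.42, 7.21 and 7.46 in knockout fat, against 7.83, 8.47 and 7.87 in control fat. Fdps read 6.92, 6.58 and 6.75 in knockout fat, against 7.0, 7.48 and 6.97 in control fat. In both genes all 3 knockout arrays lay below all 3 controls, the control replicate 2 array was the highest and the knockout replicate 2 array the lowest. Such separation below the controls at CT0 was seen for 4 of the 10 genes (4.47% of all genes), with Fdft1 and Mvd as the other members. Mvd read 6.15, 6.11 and 6.00 in knockout fat, against 6.18, 6.23 and 6.19 in control fat, a difference of -0.11 ± 0.094. Lss read 5.71, 5.50 and 5.77 in knockout fat, against 5.90, 6.01 and 5.77 in control fat, and the groups touched.

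Sc5d read 9.11, 7.75 and 8.95 in knockout fat at CT0, against 8.80, 9.03 and 8.63 in control fat. Its difference of -0.22 ± 0.22 came with 1 low knockout array, again replicate 2, and was 0.21 ± 0.14 without it. The remaining differences at CT0 were -0.31 ± 0.20 for Idi1, -0.24 ± 0.17 for Cyp51 and -0.06 ± 0.11 for Sqle.

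Cell type markers also differed by sign at CT0. The 9 epithelial markers were higher in knockout fat in 9 of 9 cases (median 0.48), through replicate 2, whose mean of them was 7.74 against 6.08 and 5.98 on the other knockout arrays and 6.00 to 6.10 on the controls. The 4 smooth muscle markers were higher in 4 of 4 cases (median 0.67), with means of 9.85 to 10.90 in knockout fat and 8.88 to 10.73 in control fat, highest on replicate 2 of each genotype. The 7 adipocyte markers were lower in 7 of 7 cases (median -0.10), with means of 10.26 to 11 in knockout fat and 10.68 to 10.90 in control fat. The mean of 10.26 was on knockout replicate 2. The other knockout arrays, at 11 and 10.93, lay above every control, so the lower average of these means came through replicate 2. The 6 macrophage markers were lower in 6 of 6 cases (median -0.25), with means of 7.96 to 9.05 in knockout fat and 8.57 to 9.05 in control fat, lowest on replicate 2 of each genotype. The part of these markers in the cholesterol genes' differences was not tested. Without replicate 2 of both genotypes at CT0, an alternative chosen after seeing the data, 8 of 10 genes were still negative by sign. The share of all genes that were negative is not given for that fit, and the median of the 10 was -0.08. Of the 10 genes 1, Fdft1 at -0.43 ± 0.20, was still lower at an unadjusted limma p under 0.05 (1.14% of all genes). In that fit Nsdhl was at -0.41 ± 0.24, Fdps at -0.16 ± 0.12, Lss at -0.10 ± 0.097, Sc5d at 0.32 ± 0.14 and Hmgcs1 at 0.83 ± 0.51. Without control replicate 2 alone, 3 of 10 were lower at that level (1.94% of all genes), Fdft1 at -0.40 ± 0.18, Fdps at -0.24 ± 0.11 and Nsdhl at -0.48 ± 0.22. Without knockout replicate 2 alone, Fdft1 was at -0.69 ± 0.22, Nsdhl at -0.61 ± 0.24 and Fdps at -0.32 ± 0.13, and the median was -0.14. Lss was then at -0.15 ± 0.091 and Hmgcs1 at 0.96 ± 0.46.

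**Figure D3:**
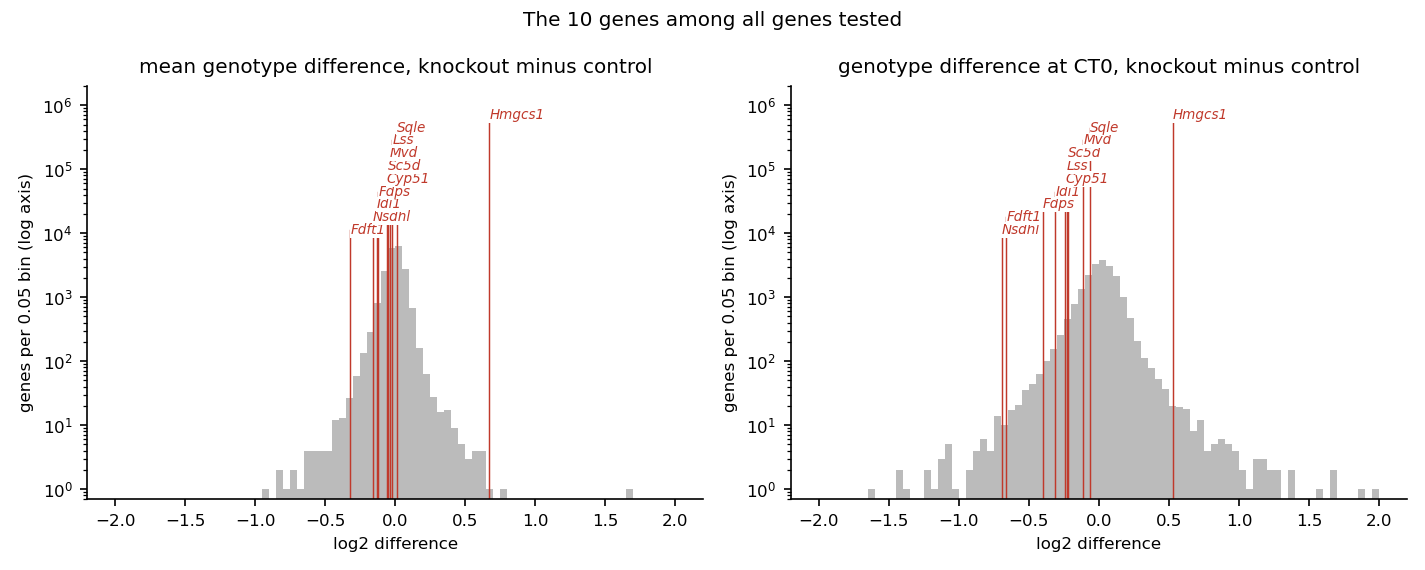
Number of genes per 0.05-wide bin (y axes, log scale) of the log2 difference, knockout minus control (x axes), over all 19938 genes, for the mean of the 4 times and for CT0, with the 10 genes as vertical lines whose height only spaces the labels. Hmgcs1 (0.67) is at the far right on average, and at CT0 9 of the 10 lines are left of 0, with Nsdhl at -0.69 and Fdft1 at -0.66.

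At the later times the differences had both signs. The median difference of the 10 genes was -0.02 at CT6, -0.01 at CT12 and 0.06 at CT18, against 0.0019, -0.015 and -0.00056 over all genes. All 3 knockout arrays lay above all 3 controls for 2 of 10 genes at CT6 (5.01% of all genes), Hmgcs1 and Lss. At CT6 Lss read 5.68, 5.75 and 5.78 in knockout fat, against 5.58, 5.68 and 5.53 in control fat, a difference of 0.15 ± 0.086. The knockout minimum and the control maximum thus differ only beyond the second decimal. At CT12 all knockout arrays lay below all controls for 1 of 10 (5.12%), Mvd, with 5.94, 5.91 and 5.97 in knockout fat, against 6.10, 6.23 and 6.18 in control fat, a difference of -0.23 ± 0.094 (adjusted p = 1.0). At CT18 no gene of the 10 was separated, against 8.58% of all genes in either direction.

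Within genotypes, few of these genes differed with time of day. By the F test of any change over the 4 times, 0 of 10 passed the adjusted limma threshold in knockout fat (14 genes in all, 0.0702%) and 0 of 10 in control fat (12 genes, 0.0602%). At an unadjusted p under 0.05, 1 of 10 was called in knockout fat (13.4% of all genes), Fdft1 (adjusted p = 0.143). In control fat 3 of 10 were called (5.8% of all genes): Lss (adjusted p = 0.711), Mvd (adjusted p = 0.799) and Nsdhl (adjusted p = 0.855).

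In knockout fat the Fdft1 level averaged 7.29 ± 0.077, 7.81 ± 0.28, 8.21 ± 0.23 and 8.04 ± 0.38 from CT0 to CT18 (SD, n = 3). In control fat it averaged 7.95 ± 0.46, 8.21 ± 0.18, 8.34 ± 0.19 and 8.13 ± 0.11 at the same times. CT12 minus CT0 was 0.92 ± 0.20 in knockout fat (limma adjusted p = 0.0859) and 0.38 ± 0.20 in control fat (adjusted p = 1.0). That comparison called 19 genes in knockout fat (0.0953%). All knockout arrays at CT12 were above all those at CT0, whereas the control groups overlapped through the 8.48 of replicate 2 at CT0. Cell type markers differed between the same groups of knockout arrays. The 4 smooth muscle markers were lower at CT12 in 4 of 4 cases (median -1.3; 4 of 4 at an unadjusted p under 0.05, against 4.35% of all genes), with means of 8.85 to 9.08 at CT12 and 9.85 to 10.9 at CT0. The 6 macrophage markers were higher in 6 of 6 cases (median 0.57; 5 of 6 at that level, against 5.42% of all genes), with means of 9.0 to 9.44 at CT12 and 7.96 to 9.05 at CT0. The 9 epithelial markers were lower in 9 of 9 cases (median -0.6), with 5 of 9 at that level, through replicate 2 at CT0. Their means were 6.08, 7.74 and 5.98 at CT0 and 5.96 to 6.02 at CT12. In control fat 0 of 4, 0 of 6 and 0 of 9 passed that level, and the median of the smooth muscle markers was -0.17. Their part in the Fdft1 difference was not tested. Whether the increments differ by genotype was tested only in the interaction over all 4 times. With array weights, which count less the arrays that deviate from their group, the knockout increment was 0.97 (adjusted p = 0.021). Without the 4 arrays it was 0.79 (adjusted p = 0.246). Over 33 alternative fits its adjusted p ranged over 0.021 to 0.422.

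In knockout fat the Nsdhl level averaged 7.36 ± 0.13, 7.37 ± 0.34, 7.54 ± 0.37 and 7.73 ± 0.17 from CT0 to CT18 (SD, n = 3). In control fat it averaged 8.05 ± 0.36, 7.52 ± 0.15, 7.47 ± 0.44 and 7.60 ± 0.16 at the same times. The highest mean was thus at CT18 in knockout fat and at CT0 in control fat. The means of Lss lay between 5.66 ± 0.14 at CT0 and 5.80 ± 0.13 at CT18 in knockout fat, and between 5.59 ± 0.075 at CT6 and 5.89 ± 0.12 at CT0 in control fat. The genotype by time interaction passed the adjusted limma threshold for 0 of 10 genes and 0 of all 19938 (0%). Its unadjusted p was 0.0372 for Lss, 0.0377 for Mvd and 0.0499 for Nsdhl, with 2.98% of all genes called at that level, and 0.0539 for Fdps.

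Hmgcs1 varied most within groups. Its pooled SD among replicates was 0.63, against 0.31 for Sc5d, 0.29 for Nsdhl, 0.28 for Idi1 and 0.27 for Fdft1, and between 0.099 (Lss) and 0.23 (Cyp51) for the rest. The largest group SDs of Hmgcs1 were 0.98 in control fat at CT12 and 0.85 in knockout fat at CT18. Each of these groups holds an array that sided with the opposite genotype.

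To see whether the genes varied together from mouse to mouse, deviations from the group means were correlated over the 24 arrays for all 45 pairs, with Benjamini-Hochberg adjustment over the pairs and 100000 permutations for each p. The median Pearson r was 0.30, and 32 of 45 were positive. By Pearson 4 pairs passed at 0.05 and by Spearman 6, and the 4 by Pearson were all positive. Deviations cancel out within each group, so the 24 values carry only 16 residual degrees of freedom. The permutations treated all 24 as exchangeable, so the p-values of all pairs are likely too small. The counts of pairs that passed may therefore be too high. Idi1 and Cyp51 had r = 0.74 (permutation p = 4e-05, adjusted 0.0018) and rho = 0.72 (permutation p = 0.00013, adjusted 0.00585). Without the 2 arrays farthest from the median of the first gene named, here and below, r was 0.71. Over knockout arrays r was 0.85, and over control arrays 0.64. Idi1 and Nsdhl had r = 0.65 (permutation p = 0.00076, adjusted 0.0171) and rho = 0.64 (permutation p = 0.0013, adjusted 0.0172), with r = 0.58 without the 2 farthest arrays.

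Hmgcs1 went with Sc5d, at r = 0.60 (permutation p = 0.00147, adjusted 0.022) and rho = 0.64 (permutation p = 0.00095, adjusted 0.0172), with r = 0.65 without the 2 farthest arrays. It also went with Lss, at r = 0.59 (permutation p = 0.00253, adjusted 0.0285) and rho = 0.58 (permutation p = 0.00319, adjusted 0.0287). For that pair r was 0.82 over knockout and 0.28 over control arrays, and 0.48 without the 2 farthest. With Fdft1 the sign was negative, at r = -0.53 (permutation p = 0.00807, adjusted 0.0544) and rho = -0.52 (permutation p = 0.0102, adjusted 0.0653). That r was -0.58 over knockout and -0.47 over control arrays, -0.39 without the 2 farthest arrays and -0.31 without the 4 arrays that sided with the opposite genotype.

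**Figure D4:**
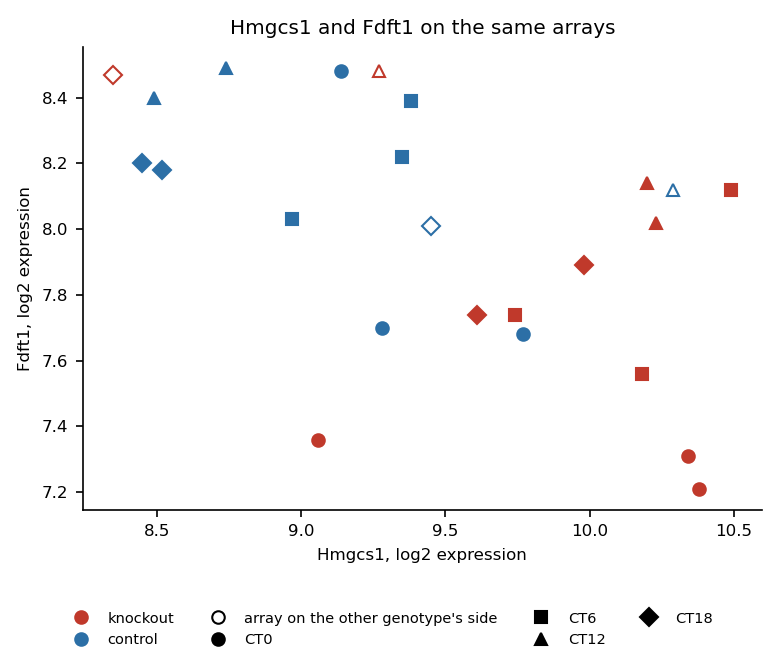
Log2 expression of Hmgcs1 (x axis) and Fdft1 (y axis) on each of 24 arrays, coloured by genotype, shaped by circadian time, with the 4 arrays that sided with the opposite genotype open. Knockout arrays lie toward high Hmgcs1 and low Fdft1, and 3 of the 4 open symbols lie among the arrays of the other genotype along the Hmgcs1 axis.

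**Figure D5:**
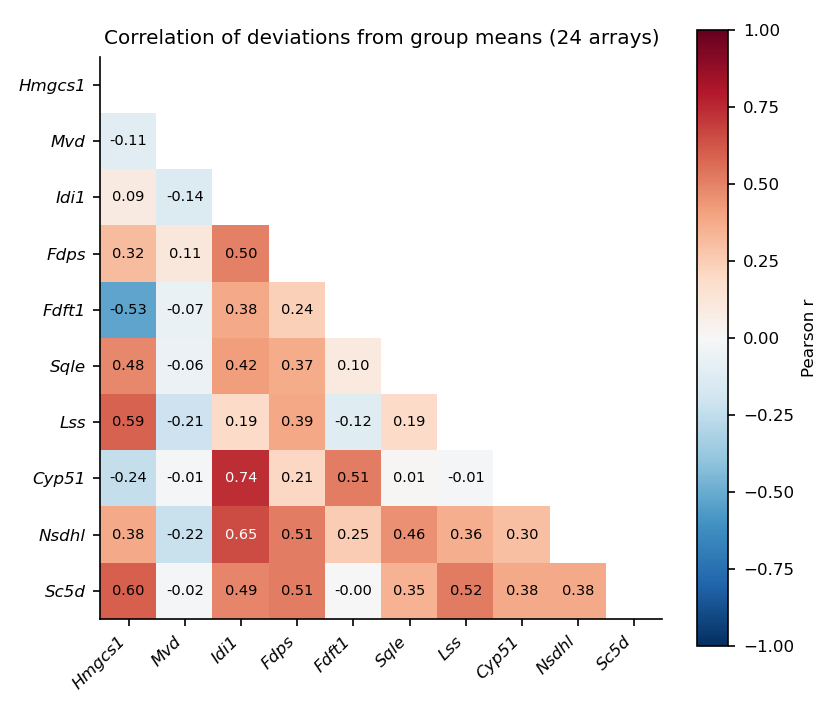
Pearson r (colour and number) between the deviations of 2 genes from their group means over 24 arrays, for the 45 pairs. The highest is Idi1 with Cyp51 (0.74) and the lowest Hmgcs1 with Fdft1 (-0.53).

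Genes outside the pathway whose level best followed the mean standardised level of the 10 were sought among 9963 genes above the median level. The 10 closest had r between 0.83 and 0.88 over the 24 arrays, given here as a description. They were Ndufs4 (0.88), a subunit of respiratory complex I, 4931406C07Rik (0.85), Dgat2 (0.85), which makes triglyceride, Gpd1 (0.85), which makes glycerol phosphate, and Uqcrc2 (0.85), of respiratory complex III, followed by Suclg1, Tecr, Me1, Dhdh and Lrpap1. Of the 10 genes themselves, Hmgcs1 (r = 0.14), Mvd (0.27) and Fdft1 (0.39) followed the mean least closely. The genes nearest to Hmgcs1 and Fdft1 alone, looked up after their values were seen, were Klb (0.91), the co-receptor of FGF21, for Hmgcs1 and Gdap10 (0.82) for Fdft1.

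The other genes around the pathway gave no called difference by the adjusted limma test in any of the genotype comparisons over all 24 arrays. Without the 4 arrays 3 genes of fatty acid synthesis passed for the mean difference, as given below. Of 8 other sterol synthesis genes used, 4 were lower on average in knockout fat, with a median of -0.01. Of them 2 passed an unadjusted p of 0.05, both lower (3.58% of all genes): Lbr, a sterol reductase of the nuclear envelope (-0.15 ± 0.040, adjusted p = 0.308), and Msmo1, which works with Nsdhl (-0.15 ± 0.067, adjusted p = 0.789). Of 6 genes of the non-sterol branch, which makes ubiquinone, dolichol and prenyl groups, 0 passed at that level, and their median was 0.04.

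The regulators of the pathway lay near 0. Srebf2, which encodes SREBP2, differed by -0.02 ± 0.037 on average and Srebf1 by 0.04 ± 0.036. Their escort Scap differed by 0.03 ± 0.037, the anchors Insig1 and Insig2 by 0.11 ± 0.13 and 0.08 ± 0.060, and the protease gene Mbtps1 by -0.05 ± 0.058. SREBP activity is set largely by cleavage of the protein, which arrays do not measure. Of 3 SREBP2 targets outside synthesis, Stard4, a sterol carrier, differed by -0.07 ± 0.041, and Tmem97 and Npc1 by 0.01 and -0.04. At CT12 Stard4 was at -0.25 ± 0.083 (adjusted p = 1.0).

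Among 8 genes of sterol sensing by LXR, efflux and esterification, 4 were lower on average in knockout fat, with a median of -0.02. Of the 8, 2 were lower at an unadjusted limma p under 0.05 (3.58% of all genes). They were Mylip, which targets the LDL receptor for degradation (-0.25 ± 0.056, adjusted p = 0.159), and Abca1, the cholesterol efflux pump (-0.17 ± 0.061, adjusted p = 0.655). Both are known targets of LXR. Abcg1, another efflux pump and LXR target, was higher, at 0.14 ± 0.074 on average and 0.35 ± 0.15 at CT0 (limma adjusted p = 0.862 at CT0).

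Fatty acid synthesis, driven by SREBP1 and fed by the same acetyl-CoA, was set beside the sterol genes at CT0. There 9 of 9 genes were lower in knockout fat (44.6% of all genes) with a median of -0.75, and 8 of 9 passed an unadjusted p of 0.05 while lower (2.78% of all genes). The 10 cholesterol genes had a median of -0.24 and 4 of 10 by the same count. Fasn, fatty acid synthase, was at -1.11 ± 0.48 and Thrsp, a lipogenic regulator, at -1.41 ± 0.28 (limma adjusted p = 0.318, the smallest of the 9). Control replicate 2 carried much of this. Fasn read 7.83, 8.24 and 8.11 in knockout fat, against 8.62, 10.5 and 8.40 in control fat. Acly, ATP citrate lyase, read 7.52, 7.40 and 7.49 in knockout fat, against 7.50, 9.15 and 7.50 in control fat. Without control replicate 2 the median of the 9 was -0.34 and 2 of 9 passed that level while lower, against a median of -0.18 and 3 of 10 for the cholesterol genes. Acly was then at -0.03 ± 0.085, Fasn at -0.45 ± 0.44 and Thrsp at -1.06 ± 0.27 (adjusted p = 0.837). Without replicate 2 of both genotypes 1 of 9, Thrsp, passed, and 1 of 10 of the cholesterol genes. The difference between the lists was not tested. Averaged over the 4 times, 9 of 9 fatty acid genes were lower in knockout fat (49.4% of all genes), with a median of -0.26. Without the 4 arrays 9 of 9 were lower, and 3 of 9 passed the adjusted limma threshold (0.697% of all genes). They were Acacb at -0.53 (adjusted p = 0.0213), Scd1 at -0.31 (adjusted p = 0.0363) and Thrsp at -0.71 (adjusted p = 0.0478).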

How the data were processed

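The deposited table gives log2 values for 24 arrays, which the authors processed with RMA, per the submitters' processing notes. Not given in the sources used here are the RMA version and the hybridization dates. Per the labels' protocols, 50 ng of total RNA was amplified and labelled with biotin. The values were used as deposited, and array medians lay between 6.46 and 6.56. An array has no sequencing depth, so the number of arrays limits the precision.

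Of 35556 probe sets, 21789 had 1 symbol in the platform annotation, and the others (1621 with several symbols, 12146 unnamed here) were not used. RefSeq (GRCm38.p6) held the Entrez numbers of 21698, and 0 symbols changed. The brightest probe set stood for each gene, as was needed for 999 of 19938 genes. Idi1 and Fdft1 are among them.

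The 8 groups were fitted over all 24 arrays with limma 3.58.1 in R 4.3.3 (16 residual and 5.03 prior degrees of freedom), with Benjamini-Hochberg adjustment over all genes and a threshold of 0.05. Differences are knockout minus control. Permutation tests and correlations used Python 3.11.15 and scipy 1.17.1. The fits were tested on simulated data. The genes named are the 10 enzymes, all regulators and SREBP2 targets used, up to 4 others of each pathway list with the smallest unadjusted p and the 10 genes of most similar pattern. The members and lists were chosen with earlier results of these data known. The labels call the arrays of a group biological replicates. Arrays with the same replicate number were not paired by the labels, and their deviations correlated at -0.37 to 0.37, over 0.1 in 5 of 12 pairs, so no block was used in the main model. At CT0 all 3 pairs correlated over 0.1 (0.19 to 0.37), and a fit with the replicate number as a block was added there. The alternatives were quantile and median normalization, bright genes only, the mean over probe sets, array weights, another variance model, fewer groups in the fit, replicate blocks, leaving out each array and leaving out 4 arrays.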

Additional observations from a re-analysis of the deposited data

Results flagged for a closer look

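Mvd and Lss were flagged by the side of the control mean on which the knockout arrays lay. All lay on the same side at a given time and on the opposite side at another. The share of all genes that meet this rule was not counted, so meeting it does not set these genes apart. The Mvd difference was -0.11 at CT0, 0.18 at CT6 and -0.23 at CT12, and the genotype by time interaction of Mvd had an unadjusted limma p of 0.0377. The Lss difference was -0.23 at CT0 and 0.15 at CT6, and its interaction had an unadjusted limma p of 0.0372. Neither passed after adjustment over all genes (adjusted p = 1.0 for both), and the differences between single pairs of times were not tested.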

How the results depend on the processing

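The number of arrays, 3 a group, and the 4 arrays that sided with the opposite genotype limit these results most. Counts below are genes past the adjusted limma threshold. For the mean genotype difference (4 genes) they were 0 with quantile normalization, with trend and robust hyperparameters and with the replicate block, also within times, 9 among bright genes, 51 with array weights and 139 without the 4 arrays. At CT18 (1 gene) 0 passed with quantile or median normalization, bright genes, only the groups compared, array weights, either replicate block or without the 4 arrays. At CT0 (0 genes) 2 passed among the CT0 arrays alone with the replicate block. At CT0, CT6 and CT12 (0 genes each) 6, 1 and 10 passed without the 4 arrays, and 9 at CT6 with only the groups compared. For change over time in control fat (12 genes), 82 passed with array weights and 24 without the 4 arrays. In knockout fat (14 genes), 23 passed with quantile or median normalization, 32 among bright genes, 2 with only that genotype, 30 with array weights and 4 without the 4 arrays. CT12 minus CT0 gave 5, 3, 73 and 17 genes in control fat with quantile normalization, only the groups compared, array weights and without the 4 arrays (8 genes), and 0, 75 and 3 in knockout fat with the last 3 of these settings (19 genes). CT18 minus CT6 gave 5 and 49 in control fat with only the groups compared and array weights (12 genes), and 13, 14 and 2 in knockout fat with quantile normalization, bright genes and only the groups compared (4 genes).

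Signs turned only for differences near 0 or under the settings named here. With array weights Lss averaged 0.01 and Sc5d 0.07, Sc5d was at 0.11 at CT0 and 0.02 at CT6, Idi1 at 0.11 at CT12, and Mvd at -0.0009 and Cyp51 at -0.0048 at CT18. Without the 4 arrays Lss averaged 0.02 and Sc5d 0.0058. At CT12 Idi1 was then at 0.04, Fdps at 0.02, Cyp51 at -0.15 and Sc5d at 0.0056, and at CT18 Lss at 0.03 and Cyp51 at -0.12. Without replicate 2 of both genotypes at CT0, Sc5d was at 0.32. The cause was not tested.

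When each array was left out in turn, the counts ranged over 0 to 30 for the mean genotype difference (30 without knockout replicate 1 at CT12, 18 and 12 without knockout or control replicate 3 at CT18, 8 without knockout replicate 2 at CT0), 0 to 3 at CT0, 0 to 5 at CT18 (5 without knockout replicate 2) and 0 to 1 for the interaction. Counts for time ranged over 4 to 74 in knockout fat (74 without replicate 2 at CT18) and 9 to 25 in control fat (25 without knockout replicate 2 at CT0). CT12 minus CT0 ranged over 0 to 63 in knockout fat (63 without replicate 3 at CT0) and 3 to 13 in control fat, and CT18 minus CT6 over 3 to 115 in knockout fat (115 without replicate 2 at CT18) and 4 to 23 in control fat (23 without knockout replicate 2 at CT0). In these 24 fits the mean difference of Hmgcs1 stayed between 0.58 and 0.81 and that of Fdft1 between -0.38 and -0.26, and both passed the adjusted threshold in 0 of 24. Fdft1 CT12 minus CT0 in knockout fat lay between 0.79 and 1.01 and passed the adjusted threshold in 2 of 24, without control replicate 2 at CT0 and without knockout replicate 3 at CT18. With array weights it was 0.97.

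Differences that crossed 0 in some of the 24 fits ranged as follows. On average Sqle lay between -0.01 and 0.04, Lss between -0.03 and 0.0021 and Sc5d between -0.11 and 0.06. At CT0 Sc5d lay between -0.47 and 0.21. At CT6 Idi1 lay between -0.11 and 0.04, Fdps between -0.0053 and 0.08, Sqle between -0.11 and 0.02, Nsdhl between -0.32 and 0.02 and Sc5d between -0.07 and 0.07. At CT12 Idi1 lay between -0.2 and 0.17, Sqle between -0.05 and 0.17, Lss between -0.0063 and 0.09, Cyp51 between -0.18 and 0.12, Nsdhl between -0.07 and 0.33 and Sc5d between -0.18 and 0.0055. At CT18 Mvd lay between -0.09 and 0.12, Fdps between -0.02 and 0.08, Fdft1 between -0.31 and 0.05, Lss between -0.09 and 0.05 and Cyp51 between -0.1 and 0.27. Arrays correlated best with their own number in 5 of 12 cases, 3 of them at CT0, and the replicate block changed no call of the 10 genes at the adjusted threshold.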
